A study of Homo sapiens with 4 samples.

Results

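The genes described are the 3 FOXO factor genes FOXO1, FOXO3 and FOXO4 and 7 genes known to be induced by FOXO factors: CCNG2, SESN1, SESN3, PIK3IP1, KLF2, IRS2 and IL7R. They were chosen by gene symbol, and all 10 had a row among the 64252 gene IDs of the count table. By RNA-seq, transcripts were counted in Jurkat cells given a short hairpin RNA against SOX4 (sh-SOX4, 2 libraries) and in Jurkat cells given a scrambled hairpin (sh-Scb, 2 libraries). Jurkat is an established human line of T cell acute lymphoblastic leukemia (T-ALL), and both groups share that line and carry a hairpin. SOX4 is a transcription factor of early lymphocyte development. The labels do not state which part of SOX4 the hairpin binds, or whether the cells were pooled or cloned.

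FOXO factors are forkhead transcription factors that bind DNA in resting or growth-factor-starved cells. When PI3K is active, the kinase AKT phosphorylates them, 14-3-3 proteins bind them and they leave the nucleus, so their activity is set largely at the protein level and is not read by their own mRNA. In T cells they are known for holding cells in quiescence and for inducing genes of homing and survival, among them KLF2 and IL7R. Jurkat cells are known to lack the protein SHIP1, a lipid phosphatase that opposes PI3K signalling.

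Levels are in CPM, counts scaled to the library size after TMM adjustment, with the SD over the 2 libraries of a group. A gene was called when edgeR's quasi-likelihood test gave a Benjamini-Hochberg adjusted p under 0.05 over all 19897 gene IDs tested. The libraries held 32872606 and 30830081 counts in sh-SOX4 and 36636219 and 29093287 counts in sh-Scb, where 3 counts are worth 0.0794 to 0.101 CPM. SOX4 itself had 6049 and 5914 counts in the sh-SOX4 libraries, against 10246 and 8344 in the sh-Scb libraries. Its level of 195 ± 5.61 CPM in sh-SOX4 was below the 274 ± 4.26 CPM of sh-Scb (SD, n = 2 each). SOX4 stood at 71.1% of control with a 95% model interval of 66.4% to 76.1% (edgeR adjusted p 1.24e-05). Among all tested IDs, 21.9% had a lower log2 fold change than SOX4. Jurkat markers were present throughout, with 14 of 14 T cell markers tested and summed levels of 2782 and 2867 CPM in sh-SOX4 and 2296 and 2242 CPM in sh-Scb. The 6 myeloid markers summed to 2.96 and 3.22 CPM in sh-SOX4 and 2.01 and 2.52 CPM in sh-Scb, with LYZ at 0 in all 4 libraries. The 3 erythroid markers summed to 0.631 and 1.28 CPM in sh-SOX4 and 1.22 and 0.963 CPM in sh-Scb, with HBB at 0. The 3 epithelial markers summed to 0.694 and 0.941 CPM in sh-SOX4 and 0.582 and 1.03 CPM in sh-Scb. The 3 B cell markers summed to 13.7 and 13.9 CPM in sh-SOX4 and 67.8 and 66.3 CPM in sh-Scb, nearly all of it CD79A, and the 3 fibroblast markers to 19.5 and 19.7 CPM in sh-SOX4 and 26.8 and 29.1 CPM in sh-Scb, mostly COL1A1. Both of these genes were lower in sh-SOX4, as were CCNG2, PIK3IP1 and SESN3, described below. The part of CD79A and COL1A1 in those results was not tested.

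The DNA letters that FOXO factors are known to prefer were looked for in RefSeq promoter windows of build GRCh38.p14, which cover 250 bases before to 50 bases after each transcript start. All 10 genes matched, with 16 windows between them. The forkhead motif GTAAACA, read on both strands, stood in 3.42% of all 35116 windows and in 2 windows of these genes, those of PIK3IP1 and FOXO4. The insulin response element letters CAAAACA stood in 4.92% of all windows and in 1 window here, that of IRS2. The SOX motif AACAAAG stood in 5.20% of all windows and in none of the 16. The 3 matches are printed because each is the motif-bearing stretch of its gene, with the motif in capitals and the gene's strand printed 5′ to 3′; in PIK3IP1 and IRS2 the motif lies on the opposite strand, so its reverse complement is read. The stretch of CCNG2, the gene with the largest change among the 10, is shown without capitals, since none of the 3 motifs stands in its window.
PIK3IP1 (chr22:31292455-31292483, minus strand): taaagagaggcTGTTTACcagaacagcat
FOXO4 (chrX:71095863-71095891, plus strand): cccggcgagtgGTAAACAgagacgtcagg
IRS2 (chr13:109786606-109786634, minus strand): gagtcacatgtTGTTTTGctcttcttagt
CCNG2 (chr4:77157051-77157150, plus strand): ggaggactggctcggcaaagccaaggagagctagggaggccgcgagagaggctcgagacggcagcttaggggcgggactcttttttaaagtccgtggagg

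The PIK3IP1 motif begins 16 bases after a RefSeq start and the FOXO4 motif 23 bases after one, while the IRS2 letters begin 40 bases before a start. The CCNG2 stretch ends 1 base before the start of the gene in GENCODE release 29. A match describes letters in a short window and shows no binding, and enhancers farther away were not searched.

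Transcripts of the 3 FOXO factors were close between the groups. Of the 7 FOXO-induced genes, 3 stood at 24.4% to 41.2% of the control level in sh-SOX4. Of the 10 genes, 9 passed the filter on low counts, and 3 of those 9 were called, all lower: CCNG2, PIK3IP1 and SESN3. Over all tested gene IDs 44.1% were called in either direction and 20.9% were called lower, beside 33.3% called lower among the 9. The median log2 fold change of the 9 was -0.08, beside -0.01 over all tested IDs.

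**Figure D1:**
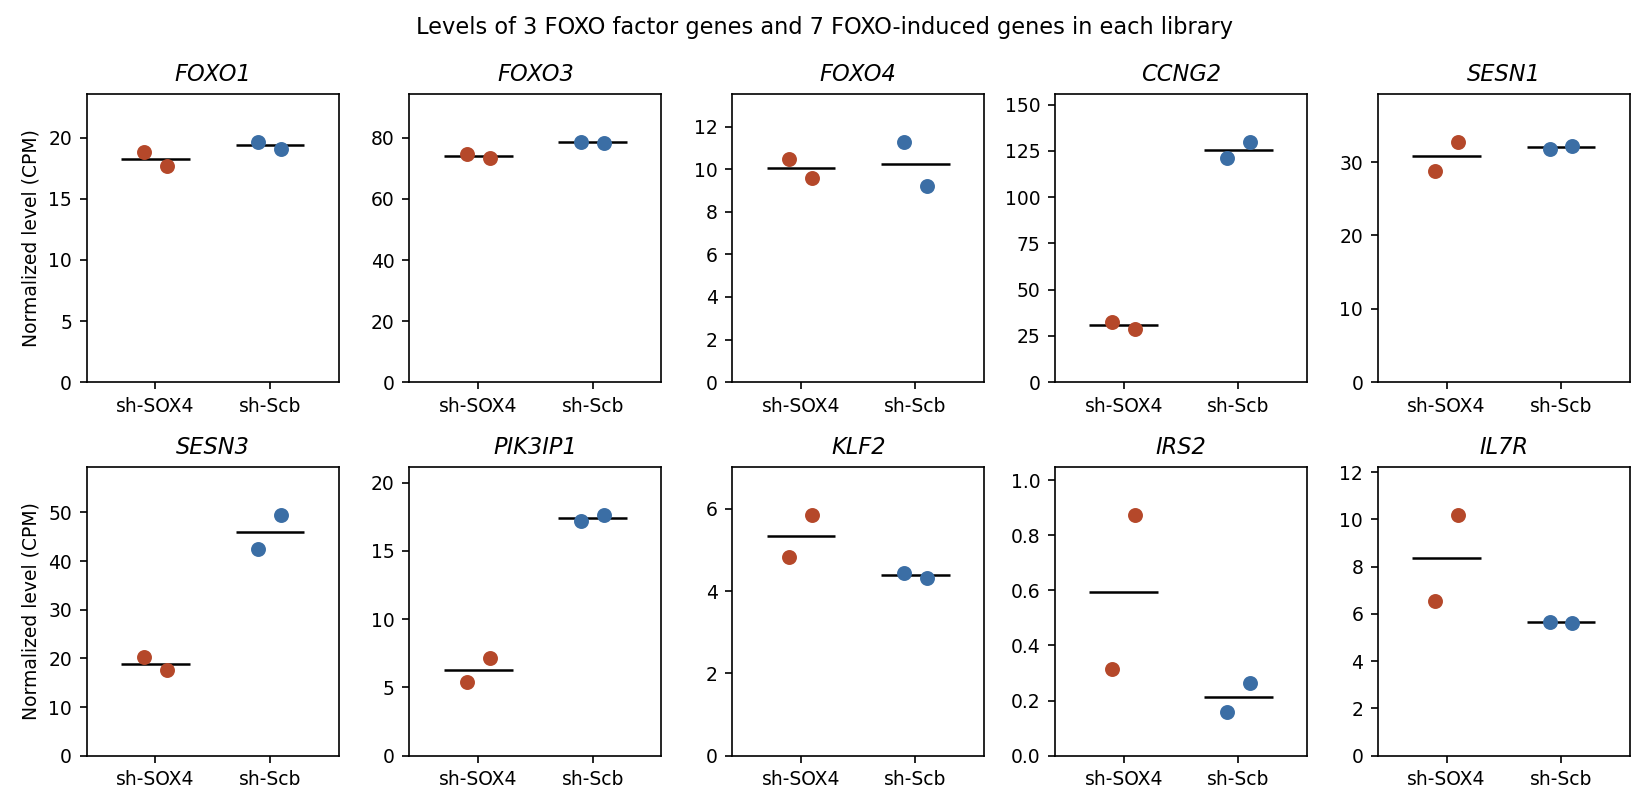
Normalized level in CPM (y axes, linear from 0, a scale of its own for each gene) of the 10 genes in the 2 sh-SOX4 libraries (red) and the 2 sh-Scb libraries (blue); black lines are group means. CCNG2, SESN3 and PIK3IP1 are lower in both sh-SOX4 libraries, each of the 3 FOXO factor genes has sh-SOX4 values near its sh-Scb values, and IL7R and IRS2 are pulled up by the second sh-SOX4 library.

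FOXO3 (ENSG00000118689, chromosome 6, 108559835 to 108684774 on GRCh38) was the most abundant FOXO factor mRNA. It measured 74.7 and 73.5 CPM in the sh-SOX4 libraries, against 78.8 and 78.3 CPM in the sh-Scb libraries. The sh-SOX4 values were lower without overlap, but by little. The log2 fold change was -0.08 (SE 0.052) with a 95% interval of -0.20 to 0.03, and edgeR's quasi-likelihood test gave an adjusted p of 0.221. With scaling to library totals alone, FOXO3 fell by 0.18 (edgeR adjusted p 0.0165). With only gene IDs of at least 10 CPM in 2 libraries it fell by 0.15 (edgeR adjusted p 0.0360). The FOXO3 copy FOXO3B had 244 and 250 counts of its own in sh-SOX4 and 272 and 166 in sh-Scb, so reads could be shared between the 2 genes.

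FOXO1 (ENSG00000150907, chromosome 13, 40469953 to 40666597), the factor best known in naive T cells, measured 18.8 and 17.7 CPM in the sh-SOX4 libraries. The sh-Scb libraries held 19.7 and 19.1 CPM. Its log2 fold change was -0.09 (SE 0.10), with a 95% interval of -0.32 to 0.14 and an edgeR adjusted p of 0.516.

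FOXO4 (ENSG00000184481, chromosome X, 71096197 to 71103535) measured 10.5 and 9.61 CPM in the sh-SOX4 libraries, against 11.3 and 9.20 CPM in the sh-Scb libraries, and the groups overlapped. Its log2 fold change of -0.03 (95% interval -0.36 to 0.30, edgeR adjusted p 0.885) turned to 0.03 without sh-SOX4 replicate 2 and to 0.13 without sh-Scb replicate 1. As shares of control, the 95% intervals ran from 80.3% to 110.1% for FOXO1, from 87.0% to 102.3% for FOXO3 and from 77.8% to 123.0% for FOXO4.

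Per kilobase of exon, FOXO3 made up 61.5% and 62.9% of the summed FOXO1, FOXO3 and FOXO4 level in the sh-SOX4 libraries, and 61.3% and 63.9% in the sh-Scb libraries. FOXO1 held 19.2% and 18.7% of that sum in sh-SOX4, against 19.0% and 19.3% in sh-Scb. FOXO4 held 19.3% and 18.4% in sh-SOX4, against 19.7% and 16.8% in sh-Scb. The make-up of the FOXO factor pool therefore differed by less than the spread between libraries. FOXO6, the remaining family member, is a low-level gene here, at 2.81 ± 0.586 CPM in sh-SOX4 and 3.93 ± 1.14 CPM in sh-Scb (SD, n = 2 each), and it was not called (log2 fold change -0.49, edgeR adjusted p 0.171). Its value was -0.15 without sh-Scb replicate 1, and -0.76 without sh-Scb replicate 2, where it was called lower (edgeR adjusted p 0.0398).

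CCNG2 (ENSG00000138764, chromosome 4, 77157151 to 77433388) encodes cyclin G2, an unconventional cyclin tied to cell cycle exit and a long-known FOXO target. Its counts were 1028 and 861 in the sh-SOX4 libraries, against 4585 and 3914 in the sh-Scb libraries. These are 32.4 and 28.9 CPM in sh-SOX4 and 121 and 130.0 CPM in sh-Scb. Every sh-SOX4 value lay far below every sh-Scb value. CCNG2 kept 24.4% of the control level (95% interval 21.9% to 27.2%), a log2 fold change of -2.03 (SE 0.070) with an edgeR adjusted p of 3.71e-08. Of the 19897 tested IDs, 248 (1.25%) had a lower log2 fold change. The nearest tested protein-coding genes, CCNI (log2 fold change 0.05) and CNOT6L (-0.81), were not called.

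PIK3IP1 (ENSG00000100100, chromosome 22, 31281593 to 31292534) encodes a membrane protein that binds PI3K and restrains it. Its counts were 171 and 212 in the sh-SOX4 libraries, against 650 and 531 in the sh-Scb libraries. The levels were 5.39 and 7.12 CPM in sh-SOX4 and 17.2 and 17.6 CPM in sh-Scb, with no overlap. PIK3IP1 kept 35.9% of the control level (95% interval 28.4% to 45.4%), a log2 fold change of -1.48 (SE 0.15) with an edgeR adjusted p of 3.03e-05. The gene PIK3IP1-DT on the other strand shares 0.946% of its exonic bases and had 8 and 10 counts in sh-SOX4 and 17 and 8 in sh-Scb. LIMK2, a kinase gene 1513 bases from PIK3IP1, had a log2 fold change of -0.10 and was not called. PATZ1, the nearest tested protein-coding gene on the other side, was called higher (0.34, edgeR adjusted p 0.00426).

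SESN3 (ENSG00000149212, chromosome 11, 95165513 to 95232541) encodes sestrin 3, a stress protein of the sestrin family, whose members restrain mTORC1. It measured 20.2 and 17.6 CPM in the sh-SOX4 libraries and 42.6 and 49.4 CPM in the sh-Scb libraries. Both sh-SOX4 libraries lay below both sh-Scb libraries. SESN3 kept 41.2% of the control level (95% interval 34.9% to 48.6%), a log2 fold change of -1.28 (SE 0.11) with an edgeR adjusted p of 8.19e-06. Among all tested IDs, 4.98% had a lower log2 fold change than SESN3 and 3.32% a lower one than PIK3IP1. Of the nearest tested protein-coding genes to SESN3, ENDOD1 was not called (-0.08). FAM76B, on the other side, was called lower (-0.47, edgeR adjusted p 0.000538). CCNG2, PIK3IP1 and SESN3 were called lower under all 12 other settings tried, with log2 fold changes of -2.13 to -1.96 for CCNG2, -1.69 to -1.28 for PIK3IP1 and -1.38 to -1.17 for SESN3.

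SESN1 (ENSG00000080546, chromosome 6, 108986437 to 109094819) is a sestrin known as a target of both FOXO factors and p53. It lies 301663 bases from FOXO3, with only ARMC2 as a tested protein-coding gene between them. It measured 28.8 and 32.8 CPM in the sh-SOX4 libraries and 31.8 and 32.1 CPM in the sh-Scb libraries, which overlapped. Its log2 fold change was -0.06 (95% interval -0.26 to 0.15, edgeR adjusted p 0.660), and it was 0.04 without sh-SOX4 replicate 1. An antisense gene shares 7.09% of its exonic bases and had at most 31 counts in a library. SESN2, the stress-induced member of the family, rose to 33.2 ± 0.152 CPM in sh-SOX4, against 27.0 ± 0.0706 CPM in sh-Scb (SD, n = 2 each), with a log2 fold change of 0.30 (edgeR adjusted p 0.0150). That call was lost with library totals (edgeR adjusted p 0.0771) and in the test against 1.2-fold (edgeR adjusted p 0.316). It was also lost without sh-SOX4 replicate 2, where the log2 fold change was 0.29.

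The 3 sestrin genes thus had a fall, a rise and no call. The log2 ratio of SESN3 to SESN1 was -0.51 and -0.89 in the sh-SOX4 libraries and 0.42 and 0.62 in the sh-Scb libraries. It did not overlap between the groups, and the exact two-sided permutation test gave p = 0.333, the smallest that 2 against 2 libraries allow. The cyclin G genes were both called lower. CCNG1, the p53-induced relative of CCNG2, fell to 166 ± 0.712 CPM in sh-SOX4, against 289 ± 19.4 CPM in sh-Scb (SD, n = 2 each; log2 fold change -0.80, edgeR adjusted p 1.54e-06). The log2 ratio of CCNG2 to CCNG1 was -2.35 and -2.52 in the sh-SOX4 libraries, against -1.18 and -1.22 in the sh-Scb libraries (exact two-sided permutation p = 0.333, again the smallest possible).

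KLF2 (ENSG00000127528, chromosome 19, 16324817 to 16327874) is a zinc finger factor of T cell quiescence and homing. It measured 4.82 and 5.85 CPM in the sh-SOX4 libraries and 4.44 and 4.32 CPM in the sh-Scb libraries. The sh-SOX4 values were a little higher, with a log2 fold change of 0.28 (95% interval -0.14 to 0.71) and an edgeR adjusted p of 0.264. Leaving out sh-SOX4 replicate 1 gave 0.42 and leaving out sh-SOX4 replicate 2 gave 0.14, with no call in either fit. Of 9 other KLF genes listed, 5 fell and KLF16 rose, beside 20.9% called lower and 23.2% called higher over all tested IDs. KLF10, a TGF-beta-induced member, fell to 31.8 ± 1.29 CPM in sh-SOX4, against 64.2 ± 7.37 CPM in sh-Scb. KLF6 fell to 41.6 ± 1.87 CPM in sh-SOX4, against 68.4 ± 2.94 CPM in sh-Scb, and KLF16 rose to 20.1 ± 0.534 CPM in sh-SOX4, against 14.5 ± 0.502 CPM in sh-Scb (SD, n = 2 each). Among the 10 listed KLF genes, which are not the whole family, KLF2 and KLF16 had a log2 fold change above 0. KLF2 was not called, and the difference between KLF2 and the other KLF genes was not tested.

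IL7R (ENSG00000168685, chromosome 5, 35852695 to 35879603) encodes the alpha chain of the interleukin 7 receptor, a survival receptor of T cells. Its counts were 207 and 303 in the sh-SOX4 libraries and 214 and 169 in the sh-Scb libraries. After scaling these were 6.53 and 10.2 CPM in sh-SOX4 and 5.66 and 5.61 CPM in sh-Scb, and sh-SOX4 replicate 2 stood above the other 3 libraries. The log2 fold change was 0.57 (SE 0.22) with a 95% interval of 0.08 to 1.05, and the edgeR adjusted p of 0.0580 missed the threshold. Without sh-SOX4 replicate 1 the log2 fold change was 0.86 (edgeR adjusted p 0.00247), and without sh-SOX4 replicate 2 it was 0.21 (edgeR adjusted p 0.499), so the value rests on sh-SOX4 replicate 2.

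Most partners of IL7R were not called, nor were most of all tested IDs, of which 44.1% were called. IL2RG, the common gamma chain, measured 201 ± 8.31 CPM in sh-SOX4 and 205 ± 6.77 CPM in sh-Scb (SD, n = 2 each), and 50.8% of its exonic sequence overlaps other genes. JAK3, the kinase that binds the gamma chain, rose to 56.6 ± 2.83 CPM in sh-SOX4, against 39.8 ± 0.493 CPM in sh-Scb (SD, n = 2 each; edgeR adjusted p 0.000223). Of the 8 measured receptor partners and gamma-chain receptors, 2 rose and none fell, beside 23.2% higher and 20.9% lower over all tested IDs. STAT5A, which carries the receptor's signal and is named after its values were seen, had 9317 and 9218 counts in the sh-SOX4 libraries and 8169 and 3520 in the sh-Scb libraries. The sh-Scb libraries disagreed on STAT5A, and it was not called (edgeR adjusted p 0.263).

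IRS2 (ENSG00000185950, chromosome 13, 109752698 to 109786568), an adaptor of insulin and interleukin 4 receptors, was too low to be tested. It had 10 and 26 counts in the sh-SOX4 libraries and 6 and 8 in the sh-Scb libraries. With no filter its log2 fold change was 1.48 (edgeR adjusted p 0.150), and with sh-SOX4 replicate 1 left out it passed the filter and was called higher (2.05, edgeR adjusted p 0.0443). In the other 3 fits with a library left out it also passed the filter and was not called, at 0.58 without sh-SOX4 replicate 2, 1.15 without sh-Scb replicate 1 and 1.87 without sh-Scb replicate 2 (edgeR adjusted p 0.695, 0.313 and 0.117). IRS1, its relative, measured 22.3 ± 0.859 CPM in sh-SOX4 and 18.5 ± 0.00802 CPM in sh-Scb (SD, n = 2 each), with an edgeR adjusted p of 0.0504. It passed with median-ratio size factors and with limma-voom (adjusted p 0.0495 and 0.0493).

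**Figure D2:**
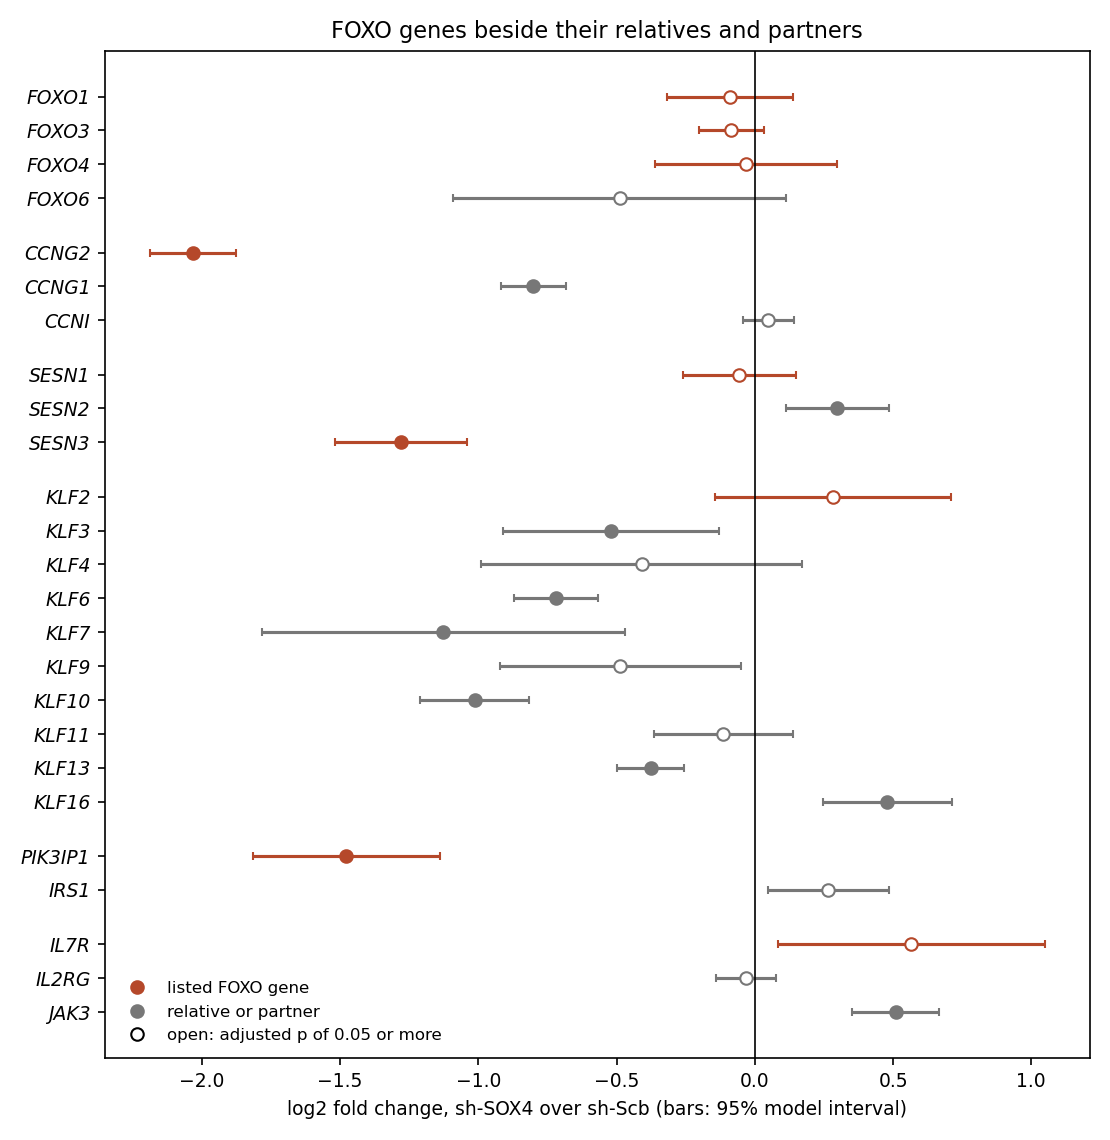
Log2 fold change of sh-SOX4 over sh-Scb (x axis) with 95% model intervals for the tested FOXO genes (red) and for relatives and partners (grey); filled points have an edgeR adjusted p under 0.05. CCNG2 at -2.03, PIK3IP1 at -1.48 and SESN3 at -1.28 lie left of 0 with their whole intervals, while those of the 3 FOXO factors, SESN1 and KLF2 include 0.

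Ordered by level per kilobase of exon, FOXO3 came first in sh-SOX4 at 9.59 ± 0.110 CPM per kilobase, then SESN1 at 6.01 ± 0.552 and CCNG2 at 4.10 ± 0.330. In sh-Scb, CCNG2 came first at 16.8 ± 0.821 CPM per kilobase, then FOXO3 at 10.2 ± 0.0463 and SESN1 at 6.25 ± 0.0405. PIK3IP1 and SESN3 were neighbours in sh-SOX4, at 1.64 ± 0.321 and 1.79 ± 0.172 CPM per kilobase, and did not differ beyond their spread. In sh-Scb they stood at 4.58 ± 0.0813 and 4.35 ± 0.460 CPM per kilobase and again did not differ beyond their spread. FOXO1 and FOXO4 were level with each other in both groups, at 2.93 ± 0.127 and 2.91 ± 0.177 CPM per kilobase in sh-SOX4 and 3.11 ± 0.0667 and 2.97 ± 0.430 in sh-Scb. KLF2 followed at 2.64 ± 0.358 in sh-SOX4 and 2.17 ± 0.0447 in sh-Scb. IL7R had 1.38 ± 0.426 in sh-SOX4 and 0.930 ± 0.00575 in sh-Scb, and IRS2 was lowest at 0.0730 ± 0.0485 in sh-SOX4 and 0.0261 ± 0.00929 in sh-Scb (SD, n = 2 throughout). The log2 ratio of CCNG2 to FOXO3 counts was -1.20 and -1.34 in the sh-SOX4 libraries and 0.62 and 0.73 in the sh-Scb libraries.

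A longer list of genes that FOXO factors are known to induce in various tissues showed mostly falls. Of 39 tested among 45 listed, 22 fell and 7 rose, or 56.4% lower and 17.9% higher, beside 20.9% lower and 23.2% higher over all tested IDs. Its median log2 fold change was -0.41. The list was chosen with earlier results of these data known, so these shares are a description only. With only gene IDs of at least 10 CPM in 2 libraries, 19 of 32 fell and 7 rose. Over all 10797 IDs at that floor, 3571 fell and 3578 rose. The largest falls were those of TXNIP, BNIP3 and ULK2, the last a kinase gene with only 10 and 6 counts in sh-SOX4 and 35 and 22 in sh-Scb. TXNIP, a thioredoxin-binding protein that limits glucose uptake, fell to 80.3 ± 0.614 CPM in sh-SOX4, against 295 ± 4.16 CPM in sh-Scb (log2 fold change -1.88, edgeR adjusted p 7.44e-09). BNIP3, a mitophagy receptor that hypoxia also induces, fell to 50.4 ± 2.05 CPM in sh-SOX4, against 176 ± 9.50 CPM in sh-Scb (SD, n = 2 each; edgeR adjusted p 2.61e-08). BNIP3 has 44 annotated copies by symbol, which together had at most 64 counts in a library.

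The list was split by role after its values were seen, and the roles were not tested against each other. Of 7 autophagy and mitophagy genes, 6 fell, among them PINK1 at 20.6 ± 0.785 CPM in sh-SOX4 and 39.9 ± 0.137 CPM in sh-Scb, where 41.7% of the exonic sequence overlaps other genes. The kinase gene ULK1 fell by 0.59 on the log2 scale. ATG14 was the exception and rose by 0.37. Of 7 genes of cell cycle and growth arrest, 5 fell and none rose. CDKN2D, an inhibitor of CDK4 and CDK6, fell to 37.3 ± 2.01 CPM in sh-SOX4, against 66.6 ± 3.74 CPM in sh-Scb, and the p27 gene CDKN1B fell by 0.19 on the log2 scale. Of 4 cell death genes, TNFSF10, the ligand TRAIL, rose to 80.4 ± 3.57 CPM in sh-SOX4, against 56.4 ± 1.77 CPM in sh-Scb, while BCL2L11, the BIM gene, fell by 0.29 on the log2 scale.

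The T cell genes of the list went both ways. S1PR1, the egress receptor, rose by 0.51 on the log2 scale, while CCR7, a chemokine receptor of lymph node homing, fell by 0.67. RAG1, a recombinase subunit, fell to 75.3 and 71.1 CPM in the sh-SOX4 libraries, against 118 and 118 CPM in the sh-Scb libraries (edgeR adjusted p 4.34e-06), and its partner RAG2 rose by 0.72 with 26.0% of its exonic bases shared. Among redox genes PRDX3, a mitochondrial peroxiredoxin, rose to 246 ± 6.44 CPM in sh-SOX4, against 184 ± 5.81 CPM in sh-Scb (SD, n = 2 each; edgeR adjusted p 4.91e-05), and CAT, catalase, was not called. Of the listed muscle and liver targets FBXO32 alone had enough counts and was not called, PDK4, IGFBP1 and G6PC1 had 0 counts in all 4 libraries, and TRIM63 and PCK1 had at most 8. SOD2 was not analysed here.

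**Figure D3:**
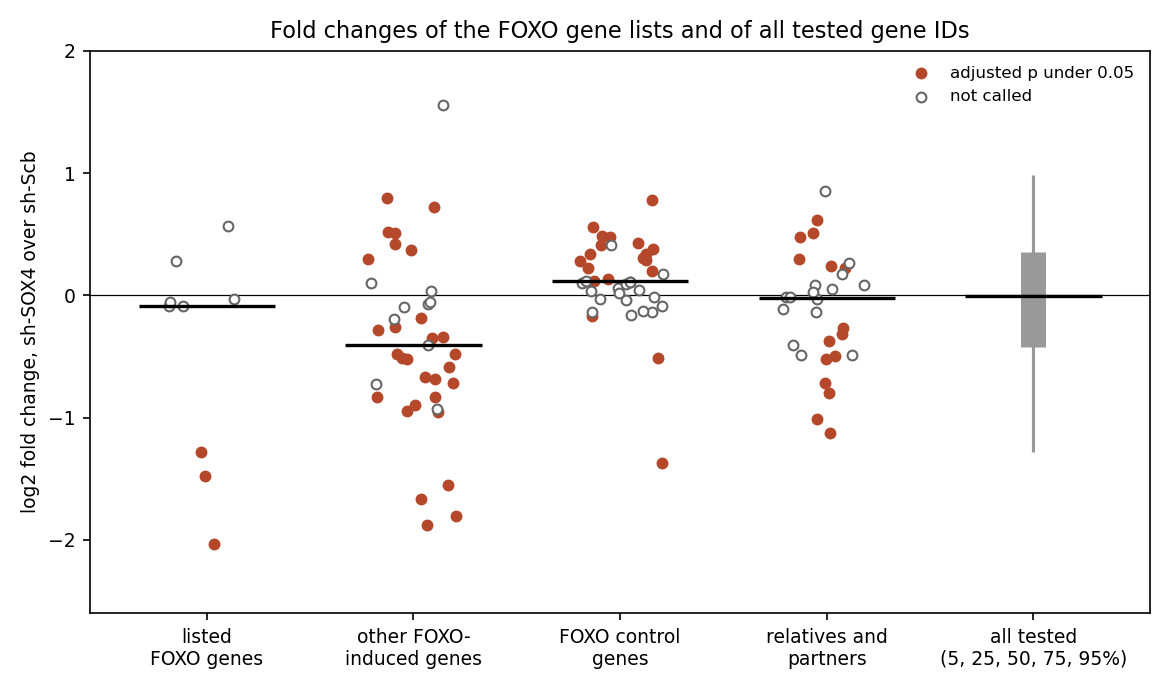
Log2 fold change of sh-SOX4 over sh-Scb (y axis) for each tested gene of 4 lists (points, filled where the edgeR adjusted p is under 0.05; black lines are list medians) and, at the right, the 5th to 95th percentile (thin bar), 25th to 75th percentile (thick bar) and median of all 19897 tested IDs. The other FOXO-induced genes have a median of -0.41 and the FOXO control genes one of 0.11, beside -0.01 for all tested IDs.

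Genes that control FOXO factors were mostly level or a little higher. Of 38 tested, 17 rose and 3 fell, or 44.7% higher and 7.89% lower, beside 23.2% higher and 20.9% lower over all tested IDs. The median log2 fold change was 0.11. With library totals the split was 12 higher and 8 lower, so the direction of small changes here depends on the scaling. With only gene IDs of at least 10 CPM in 2 libraries, 13 of 36 rose and 7 fell. Over all 10797 IDs at that floor, 3578 rose and 3571 fell, so the excess of rises was smaller there. PIK3R1, the p85 regulatory subunit of PI3K, rose to 268 ± 7.77 CPM in sh-SOX4, against 199.7 ± 2.14 CPM in sh-Scb (SD, n = 2 each; edgeR adjusted p 3.15e-05). Among the 7 PI3K subunit genes 4 rose and none fell, and with library totals 3 rose and 1 fell.

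The subunits of mTORC2, the complex that completes AKT activation, split. RICTOR, its defining subunit and itself a FOXO target, fell to 87.1 ± 1.74 CPM in sh-SOX4, against 124 ± 7.96 CPM in sh-Scb. MAPKAP1, the SIN1 subunit, rose to 85.0 ± 5.35 CPM in sh-SOX4, against 57.9 ± 2.45 CPM in sh-Scb, and MLST8 rose to 47.1 ± 0.292 CPM in sh-SOX4, against 27.4 ± 1.59 CPM in sh-Scb (SD, n = 2 each; edgeR adjusted p at most 6.88e-05 for these 3 genes). MTOR, the kinase of the complex, also rose, by 0.33 on the log2 scale. These 4 directions were the same under library totals and median-ratio factors.

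AKT1 was slightly lower in sh-SOX4, at 163 ± 6.29 CPM, against 183 ± 2.70 CPM in sh-Scb (log2 fold change -0.17, edgeR adjusted p 0.0165). It lost its call in the test against 1.2-fold (edgeR adjusted p 0.986) and without sh-SOX4 replicate 1 (log2 fold change -0.12). PHLPP1, an AKT phosphatase, fell to 5.45 ± 1.32 CPM in sh-SOX4, against 14.1 ± 1.38 CPM in sh-Scb (SD, n = 2 each; log2 fold change -1.37, edgeR adjusted p 0.000179). INPP5D, the SHIP1 gene, measured 55.1 ± 2.14 CPM in sh-SOX4 and 51.7 ± 1.72 CPM in sh-Scb (SD, n = 2 each). It was not called (log2 fold change 0.09, edgeR adjusted p 0.299). These are transcript levels, and the SHIP1 protein was not analysed here. Of the 7 genes for 14-3-3 proteins and the exportin XPO1, 5 rose, or 3 with library totals. None fell under either scaling.

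Of the 30 tested relatives and partners of the FOXO genes, 6 rose and 9 fell, with a median log2 fold change of -0.02. These 15 calls among 30 genes stand beside 44.1% called over all tested IDs, a similar share under the main filter. With only gene IDs of at least 10 CPM in 2 libraries, 45.8% of 24 were called, beside 66.2% of all IDs. The forkhead gene FOXM1, a proliferation factor that FOXO proteins are known to oppose, was at 216 ± 9.14 CPM in sh-SOX4 and 182 ± 7.43 CPM in sh-Scb (SD, n = 2 each; log2 fold change 0.24, edgeR adjusted p 0.00303), with 15.9% of its exonic bases shared. Its call was lost in the test against 1.2-fold (edgeR adjusted p 0.621). In bulk libraries, fewer cells that express a gene and less RNA per cell cannot be told apart, and this holds for every fall and rise given here.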

How the data were processed

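Per the labels' protocols, TRIzol-extracted total RNA went into Illumina TruSeq libraries. The deposited table has whole-number counts that the authors did not normalize, for each Ensembl gene ID and library. HISAT2 2.2.0, StringTie and hg38 are named by the submitters' processing notes, without roles; the sources used here state no annotation release, strand setting or filter. Overlapping and antisense genes may therefore hold each other's reads. Control columns are named NC and were taken as sh-Scb.

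Symbols were found for 56105 of 64252 IDs; coordinates, exon lengths and overlaps came from GENCODE release 29 (GRCh38). In R 4.3.3, edgeR 4.0.16 removed low gene IDs (filterByExpr, with a count of at least 10 and a sum of at least 15), computed TMM factors and fitted its robust quasi-likelihood model with group as the only term. The SE is the log2 fold change divided by the square root of F, and intervals are 95% model intervals with counting error and library spread. The labels name no separate cultures: p-values describe the spread among these 4 libraries alone, and that spread may be technical. Libraries of a group differed by more than sampling noise (median chi-square per gene 1.59 in sh-SOX4 and 1.70 in sh-Scb, against 0.455). The procedure was tested on simulated counts. There it called 52.9% of 1.5-fold, 77.1% of 2-fold and 93.3% of 4-fold changes, so a real change can go uncalled. In that simulation 19697 IDs were left unchanged, so it did not check the scaling where many genes change.

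The members, lists and tests were chosen with earlier results of these data known. The text names all members, the 3 called genes with the smallest p in each direction of each list, and fixed relatives, apart from a few genes of the lists that are not reported here but stay in the counts; other names, the grouping by role and the search for the insulin response element were chosen after values were seen. Settings tried were library totals, median-ratio factors, a floor of 10 CPM in 2 libraries or no filter, DESeq2 1.42.0, limma-voom (limma 3.58.1), a replicate block, each library left out and a test against 1.2-fold. Proteins were not analysed here.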

Additional observations from a re-analysis of the deposited data

How the results depend on the processing

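The count of called gene IDs was 8775 and stayed within 1.5 times of that except in the test against 1.2-fold, which called 5348 IDs, 9 of 38 FOXO control genes against 20, and 8 of 30 relatives and partners against 15. Over all tested IDs the median log2 fold change was -0.109 with library totals and -0.01 with TMM. Library totals called 3629 IDs higher and 5260 lower, against 4609 higher and 4166 lower with TMM. Of the 10 FOXO genes, 3 were called, and 3 to 5 with a library left out: without sh-SOX4 replicate 1, IL7R and IRS2 joined. FOXO3 passed with library totals (-0.18) and at 10 CPM in 2 libraries (-0.15). With a library left out, the log2 fold change of FOXO4 ran from -0.17 to 0.13, of SESN1 from -0.154 to 0.041, of IL7R from 0.21 to 0.86 and of IL2RG from -0.078 to 0.014. INPP5D turned to -0.0083 with library totals. With a replicate block, 8378 IDs and 3 of the FOXO genes were called; same-numbered libraries share only a number (correlation of their deviations -0.074), and the block changed no call among the 10. With library totals the other FOXO-induced genes gave 6 higher and 22 lower. The cause of these shifts was not tested. With 2 libraries a group, the intervals given for FOXO1, FOXO4 and KLF2 bound how large a change these data leave possible, and IRS2 is limited by its counts.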
